A study of Homo sapiens with 9 samples.

Results

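The genes described are the integrins, laminins and collagens of the NCI-H716 line, which came from a human colorectal carcinoma and has traits of enteroendocrine cells. A probe belonged when its name in the deposited intensity table began with ITGA or ITGB and a chain designation, with LAMA, LAMB or LAMC and a number, or read as a full collagen chain name such as COL3A1. The pattern took 148 probes of 88 genes, out of 47230 probes and 30818 named genes on the array. It also took 6 genes that are not integrin chains but bear the prefix, among them ITGB4BP, the older name of the translation factor EIF6, and ITGB1BP3, the older name of NMRK2, an enzyme that phosphorylates nicotinamide riboside. COL29A1 is the older name of COL6A5, and LAMB2L that of the pseudogene LAMB2P1. The pattern uses no measured value.

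Integrins are receptors made of 1 alpha and 1 beta chain, which join the extracellular matrix outside the cell to the actin cytoskeleton inside. Laminins are trimers of an alpha, a beta and a gamma chain and form the sheet of the basement membrane, while collagens are triple helices that build fibrils, networks and linking structures. YAP is a transcriptional coactivator restrained by the Hippo kinases, and its activity in many cells depends on adhesion and on the stiffness of the matrix. NCI-H716 is known for growing as floating or loosely attached clusters of cells.

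The study measured 9 RNA samples of NCI-H716 on an Illumina bead array, in 3 groups of 3 arrays. One group was untreated, one carried a control vector and one a vector for a YAP mutant, and no other treatment is given. Not stated in the labels are the mutation that the vector carries, the kind of vector and whether the cells were a pool or 1 clone. No label states whether replicates were grown separately, so p-values cover only how far these arrays differ, a spread that may be technical.

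Median raw intensities ran from 104.2 to 128.8, with control vector replicate 3 (104.2) and YAP mutant vector replicate 1 (104.6) below all others, which were at 119.7 or higher. All 9 of the enteroendocrine markers were measured above background. Of 8 intestinal epithelial markers 4 were, namely EPCAM, KRT8, KRT18 and CDX2, while CDH1, VIL1 and KRT20 were above background on 0 arrays. The YAP1 probe gave log2 signals of 8.29, 8.17 and 8.01 on the untreated arrays, 7.85, 7.79 and 7.94 on the control vector arrays and 8.06, 7.82 and 7.91 on the YAP mutant vector arrays. The YAP mutant vector arrays overlapped both other groups, with log2 differences of 0.07 from the control vector (limma, adjusted p = 0.964) and -0.23 from untreated cells (adjusted p = 0.237). The part of the transcript that this probe reads is not given, so YAP1 checks nothing about the labels.

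A probe counted as above background on an array when its signal exceeded a floor set from the dim side of that array's own distribution. A gene was tested when a probe exceeded the floor on at least 3 of 9 arrays, and it was then represented by its brightest such probe. By this rule 39 of the 88 genes were tested, 27 of them above background on all 9 arrays and 12 on 3 to 8. Of the other 49, 38 were above background on 0 arrays at every probe and 11 on 1 or 2 arrays. Single arrays showed 33 to 37 of the genes above background. For scale, 5.18% to 6.48% of 463 probes for olfactory receptors, genes of the nose with little place in a gut line, exceeded the same floor, so genes above it on 3 or 4 arrays sit close to background.

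**Figure D1:**
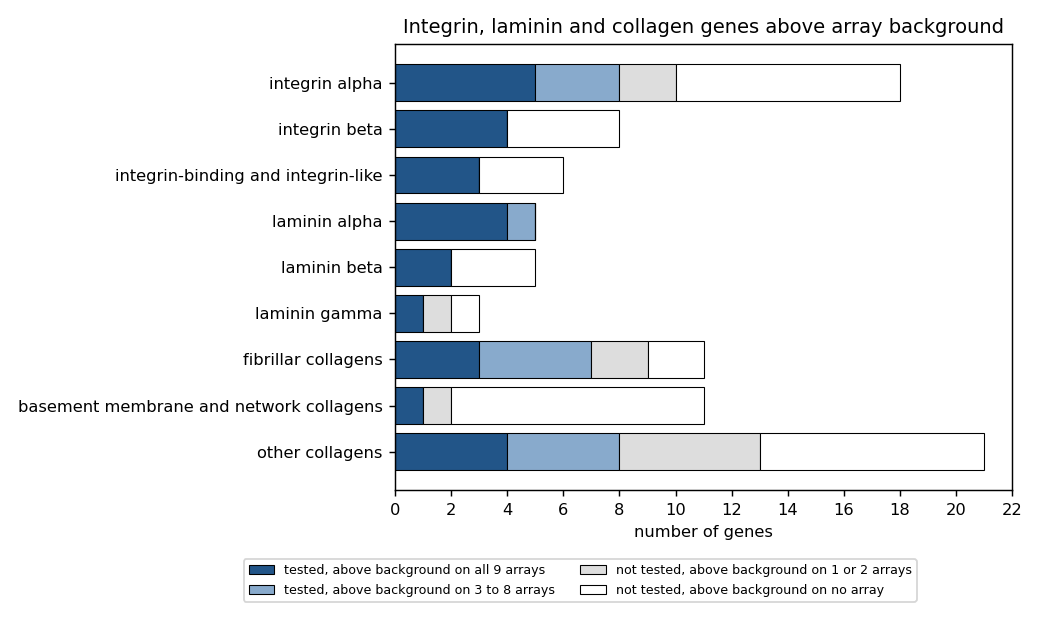
Number of integrin, laminin and collagen genes (x axis) by class (y axis), split by how many of the 9 arrays showed the gene above background; the classes sum to 88 genes. All 5 laminin alpha genes were tested, against 1 of 11 basement membrane and network collagens.

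Among the integrins, the genes above background made up a short list of possible receptors. The partner shared by many of them, ITGB1 (beta 1), was above background on 9 of 9 arrays, with log2 signals of 13.07 to 13.34. Of the 4 alpha chains known to bind collagen with beta 1, ITGA1 and ITGA2 were above background on all 9 arrays, ITGA11 on 4 and ITGA10 on 1. Of the 4 laminin-binding chains, ITGA7 alone was tested. ITGA6 and ITGB4, which together form the hemidesmosome receptor of epithelia, were above background on 0 arrays at any of their 3 and 4 probes. ITGA3, the alpha chain of the other epithelial laminin receptor, was above background on at most 2 arrays at either of its 2 probes.

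Of the 8 integrin chains of RGD-binding receptors, which recognise fibronectin and vitronectin, ITGAV, ITGB5 and ITGB6 were above background on all 9 arrays. ITGA5, the alpha chain of the classical fibronectin receptor, was above background on 0 arrays, as were ITGA8, ITGA2B, ITGB3 and ITGB8. Of the 9 remaining integrins, mostly those of leukocytes, ITGAE and ITGB2 were above background on all 9 arrays, ITGA4 on 4 and ITGA9 on 3. The partners of ITGB2 known from leukocytes, ITGAL, ITGAM, ITGAX and ITGAD, were above background on 0 arrays, as was ITGB7, the known partner of ITGAE.

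The laminin chains fell into 2 sets. LAMA2, LAMA3, LAMA4, LAMA5, LAMB1, LAMB2 and LAMC1 were above background on all 9 arrays and LAMA1 on 7, each at its brightest probe. LAMA2 and LAMA3 were dim, with log2 signals of 6.64 to 7.18 and 6.62 to 7.03 beside 12.34 to 13.06 for LAMA5. The other LAMA3 probes were above background on 0, 2 and 0 arrays, and the other LAMA1 probes on 0. LAMB3, the beta chain that joins the LAMA3 product in the laminin of epithelial hemidesmosomes, was above background on 0 arrays at its 3 probes. LAMB4, LAMC3 and the pseudogene LAMB2L were above background on 0 arrays.

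Among the collagens, COL3A1, COL5A2 and COL24A1 of the fibril-forming type were above background on all 9 arrays, as were COL8A2, COL7A1, COL14A1, COL16A1 and COL28A1. COL1A1 and COL1A2, the chains of type I collagen, exceeded the floor on 3 and 6 arrays. All 6 genes of type IV collagen, the network of the basement membrane, failed the rule, with COL4A2 above background on 1 array and COL4A1, COL4A3, COL4A4, COL4A5 and COL4A6 on 0. COL15A1 and COL18A1, whose products also sit in basement membranes, were above background on 0 arrays. In bulk RNA of this kind, few cells with much of a transcript and many cells with little cannot be told apart.

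Genes that build or carry the basement membrane beside laminin were mixed. Of a list of 36 other matrix proteins, 17 were tested. The linker and scaffold proteins NID1, NID2 and HSPG2 (perlecan) and the glycoproteins FN1 (fibronectin) and SPARC were above background on 0 arrays at their brightest probe. AGRN (agrin) and the laminin receptor DAG1 (dystroglycan) were tested, with mean log2 signals of 9.37 and 8.55 on the untreated arrays. Of 35 integrin adaptors and focal adhesion genes 30 were tested, and of 11 partners of hemidesmosomes and tetraspanins all 11 were, including CD151, which binds laminin receptors. Of 29 genes of collagen synthesis and crosslinking 17 were tested, of 32 matrix proteases and inhibitors 13, and of 14 other matrix receptors 10.

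Setting both vectors against each other asks what the YAP mutant changed beyond the carrying of a vector. None of the 39 tested integrin, laminin and collagen genes passed it (limma, Benjamini-Hochberg over 15590 features, 0 with an adjusted p under 0.05). At an unadjusted p under 0.05 there were 6 of the 39 and 1012 of all features. Of all features 0.34% passed in this comparison, 0.321% higher and 0.0192% lower. The smallest adjusted p among the 39 was 0.221, for LAMB2. A p that misses the threshold does not show that levels were equal.

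LAMB2, the beta 2 chain of laminin, had log2 signals of 8.09, 8.04 and 8.04 on the YAP mutant vector arrays and 7.67, 7.73 and 7.70 on the control vector arrays. All 3 arrays of the first group lay above all 3 of the second, and the difference was 0.36 ± 0.10 on the log2 scale (SE over 3 arrays a group; limma, adjusted p = 0.221). The untreated arrays, at 7.76, 7.51 and 7.58, overlapped those of the control vector. ITGA11, a collagen receptor chain close to background, differed by 0.35 ± 0.11 (limma, adjusted p = 0.33). It exceeded the floor on 3 of 3 YAP mutant vector arrays and on 0 of 3 control vector arrays, so its place among the tested genes came largely from the group in which it was high.

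LAMA4 differed by 0.38 between the vectors (limma, adjusted p = 0.398; 95% interval without adjustment 0.13 to 0.63) and COL16A1 by 0.35 (adjusted p = 0.577). A second, dimmer LAMA4 probe differed by 0.20 (limma, adjusted p = 0.845 in a fit over every kept probe). COL28A1 differed by -0.30 (adjusted p = 0.448) and ITGB6, the beta chain of an epithelial receptor that activates TGF-beta, by -0.25 (adjusted p = 0.733). ITGB1 differed by 0.07, with an interval of -0.14 to 0.28, and COL3A1 by 0.11, with an interval of -0.11 to 0.32. In 9 of the 39 genes (23.1%) the 2 groups of arrays did not overlap, beside 11.5% of all features. The median log2 difference of the 39 was 0.06, beside -0.0006 over all features.

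By family, the 8 tested laminin genes had a median of 0.16 (range -0.12 to 0.38), the 12 integrin genes one of 0.08 (-0.25 to 0.35) and the 16 collagen genes one of -0.05 (-0.30 to 0.35). ITGB1BP1, an adaptor that binds the tail of beta 1, differed by -0.03 and ITGB3BP, a centromere protein also named CENPR, by 0.04. ITGB4BP differed by 0.02, and a probe filed under the newer name EIF6, above background on 9 arrays, by -0.12.

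**Figure D2:**
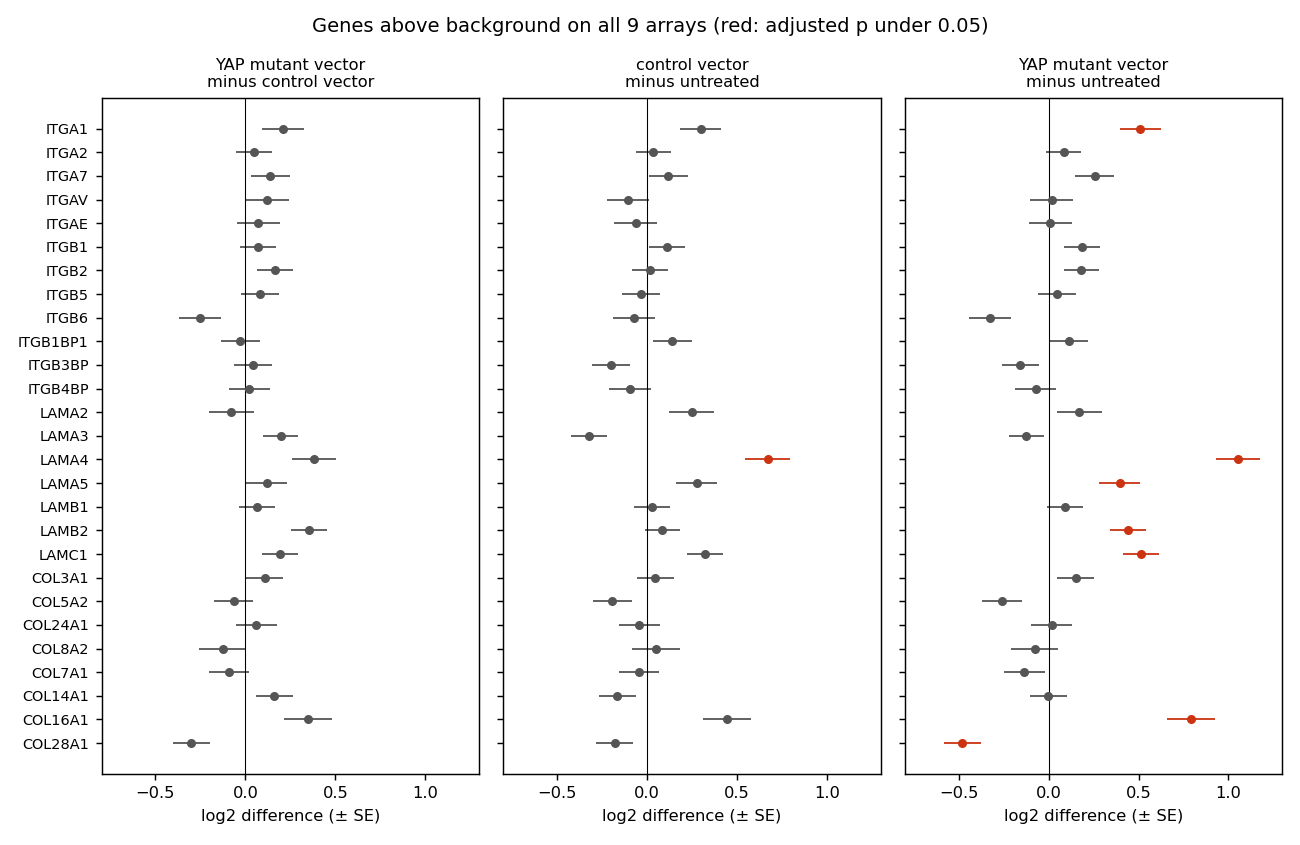
Log2 differences (x axis, ± SE) of the 27 genes above background on all 9 arrays (y axis) in the 3 comparisons, with genes at an adjusted p under 0.05 in red. No gene was called between the vectors, 1 between the control vector and untreated cells, and 7 between the YAP mutant vector and untreated cells.

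The comparison of the control vector with untreated cells asks what carrying a vector changed. LAMA4, the laminin alpha 4 chain best known from vessel, fat and muscle basement membranes, was the 1 gene of the 39 that rose (2.56%), beside 2.18% of all features (1.52% higher, 0.661% lower), so the count was near the background. Its log2 signals were 8.15, 8.25 and 8.26 on the control vector arrays and 7.40, 7.79 and 7.46 on the untreated arrays. The groups did not overlap at this probe, the brightest of the gene. LAMA4 was 1.59-fold higher there with the control vector (log2 difference 0.67, limma SE 0.12, 3 arrays a group, limma adjusted p = 0.00356). Scaling all arrays to equal medians in place of quantile normalization ended this call (log2 0.62; limma, adjusted p = 0.164). A second LAMA4 probe, also above background on 9 arrays, differed by only 0.18 (limma, adjusted p = 0.532 in a fit over every kept probe).

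COL16A1 differed by 0.44 (limma, adjusted p = 0.0839), LAMC1 by 0.32 (adjusted p = 0.0999) and ITGA1 by 0.30 (adjusted p = 0.212). LAMA3 differed by -0.32 (adjusted p = 0.0912), with 6.63, 6.62 and 6.67 on the control vector arrays against 6.86 to 7.03 on the untreated arrays, which did not overlap. Its signals on the YAP mutant vector arrays, 6.77, 6.89 and 6.85, lay above those of the control vector and overlapped the untreated ones. In 9 of the 39 genes (23.1%) the arrays of these 2 groups did not overlap, beside 18.7% of all features, and the median difference was 0.03, beside -0.003 over all features. COL16A1 passed the test without control vector replicate 2 (log2 0.57, adjusted p = 0.0357) or YAP mutant vector replicate 1 (log2 0.45, adjusted p = 0.0444), with 2 genes called in each case.

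Setting the YAP mutant vector against untreated cells asks what mutant and vector changed together, and the arrays are those of the other comparisons. Here 7 of the 39 genes passed the test (17.9%), beside 5.17% of all features. LAMA4, LAMC1, LAMB2 and LAMA5 of the laminins, ITGA1 of the integrins and COL16A1 of the collagens rose, and COL28A1 fell. Rises made up 3.36% and falls 1.81% of all features. All 7 were above background on all 9 arrays, so none owed its test to the filter, and among features above background on all 9 arrays 4.04% rose. All 7 had YAP mutant vector arrays entirely above or below the untreated ones, which held for 15 of the 39 genes (38.5%) and for 23.3% of all features.

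LAMA4 had log2 signals of 8.36, 8.61 and 8.84 on the YAP mutant vector arrays and 7.40, 7.79 and 7.46 on the untreated arrays. It was 2.07-fold higher (a log2 difference of 1.05 with an SE of 0.12, 3 arrays a group, and a limma adjusted p of 6.66e-06), and the control vector arrays lay between both groups without overlap. The second LAMA4 probe, also above background on 9 arrays, differed by 0.38 (limma, adjusted p = 0.054 in a fit over every kept probe). The 2 LAMA4 probes thus agreed in direction and not in size.

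LAMC1, the gamma 1 chain found in most laminins, had log2 signals of 11.93, 11.86 and 11.98 on the YAP mutant vector arrays, 11.60, 11.83 and 11.76 on the control vector arrays and 11.43, 11.39 and 11.41 on the untreated arrays. It was 1.43-fold higher than in untreated cells (log2 0.51 ± 0.10; limma, adjusted p = 0.00225). LAMB2, whose signals are given above, was 1.36-fold higher (log2 0.44 ± 0.10, adjusted p = 0.00882). LAMB2 lost its call without untreated replicate 2 (log2 0.38, adjusted p = 0.0603).

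LAMA5, the alpha chain of the laminins of adult epithelial basement membranes, had log2 signals of 12.97, 12.94 and 13.06 on the YAP mutant vector arrays and 12.34, 12.61 and 12.84 on the untreated arrays. It was 1.32-fold higher (log2 0.40 ± 0.12; limma, adjusted p = 0.0466). The untreated arrays were spread widely, and the call was the least firm of the 7: it ended under 13 of 24 alternatives, with adjusted p from 0.0134 to 0.508. Without untreated replicate 1 the difference was 0.27 (adjusted p = 0.215). The call also ended without untreated replicate 2 (0.112), control vector replicate 1 (0.0501) and YAP mutant vector replicate 1 (0.102), 2 (0.0708) or 3 (0.148).

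As a family, 4 of the 8 tested laminin genes rose and 0 fell, beside 3.36% of all features that rose. The median log2 difference of the 8 was 0.28, beside -0.006 over all features. The 4 that did not pass were LAMA1 at -0.06, LAMA2 at 0.17, LAMA3 at -0.13 and LAMB1 at 0.09. LAMB1, the beta 1 chain, had 10.15, 10.19 and 10.04 on the untreated arrays and 10.30, 10.11 and 10.25 on the YAP mutant vector arrays, which overlapped. After scaling to equal medians, where all features had a median difference of -0.08, the calls of LAMC1 (log2 0.36, adjusted p = 0.269), LAMB2 (0.35, adjusted p = 0.277) and LAMA5 (0.26, adjusted p = 0.508) ended and that of LAMA4 remained.

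The start regions of the 4 laminin genes that rose are shown because 4 chains of 1 protein family passed this test. Each is the 250 bases before the RefSeq gene start (GRCh38.p14), 5′ to 3′ on the strand of the gene, with GC boxes (GGGCGG on either strand, overlaps counted) in capitals.
LAMA4, chr6:112254568-112254817, minus strand: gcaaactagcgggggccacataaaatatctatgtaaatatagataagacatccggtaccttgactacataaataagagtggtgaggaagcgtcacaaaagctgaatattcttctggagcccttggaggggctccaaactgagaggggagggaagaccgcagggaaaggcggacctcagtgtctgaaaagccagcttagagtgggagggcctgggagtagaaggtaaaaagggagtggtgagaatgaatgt
LAMA5, chr20:62367313-62367562, minus strand: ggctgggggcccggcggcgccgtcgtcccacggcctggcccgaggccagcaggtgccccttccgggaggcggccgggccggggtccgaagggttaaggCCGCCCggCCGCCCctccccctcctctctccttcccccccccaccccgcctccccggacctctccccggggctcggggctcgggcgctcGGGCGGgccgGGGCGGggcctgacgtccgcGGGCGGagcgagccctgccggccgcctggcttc
LAMB2, chr3:49133051-49133300, minus strand: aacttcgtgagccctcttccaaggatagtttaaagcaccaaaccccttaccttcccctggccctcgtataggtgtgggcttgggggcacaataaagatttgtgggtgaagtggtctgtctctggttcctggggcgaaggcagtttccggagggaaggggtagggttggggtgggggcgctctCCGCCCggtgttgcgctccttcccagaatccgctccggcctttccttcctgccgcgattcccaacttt
LAMC1, chr1:183023170-183023419, plus strand: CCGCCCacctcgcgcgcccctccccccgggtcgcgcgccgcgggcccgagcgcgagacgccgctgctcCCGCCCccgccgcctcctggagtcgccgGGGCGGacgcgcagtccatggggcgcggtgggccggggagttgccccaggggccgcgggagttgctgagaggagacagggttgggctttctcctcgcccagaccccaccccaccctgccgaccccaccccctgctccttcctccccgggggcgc

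The 4 windows differed widely in composition. LAMA4 held 0 GC boxes and 48.4% G and C, LAMB2 held 1 GC box and 58.4%, LAMC1 held 3 and 79.6%, and LAMA5 held 5 and 82.8%. Of 35116 promoter windows of the same length 42.6% held a GC box, and the median of G and C was 58%. Of 38 windows found for the tested genes 18 held a GC box. Some tested genes, COL11A2 and ITGB1 among them, had several of these windows and others had none. The letters GGAATG, the core that TEAD factors bind together with YAP, were searched on both strands and occurred in 0 of these 4 windows, in 3 of the 38 (ITGB1, LAMA2 and COL11A2) and in 11.9% of all windows. The AP-1 letters TGANTCA occurred in 1 of the 38, that of LAMA3, and in 6.57% of all. A match is a description of letters, and a missing one says nothing of the factor.

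COL16A1, a collagen that associates with fibrils without forming them, was 1.73-fold higher than in untreated cells (a log2 difference of 0.79 with an SE of 0.13, and a limma adjusted p of 5.37e-04). Its log2 signals were 8.09, 8.54 and 8.65 on the YAP mutant vector arrays, 8.25, 7.82 and 8.17 on the control vector arrays and 7.54, 7.71 and 7.65 on the untreated arrays. Both vector groups lay above the untreated arrays and overlapped each other. COL28A1, a von Willebrand factor A domain collagen related to type VI collagen, fell by 0.48 on the log2 scale (SE 0.10; adjusted p = 0.0054). Its signals were 10.19, 10.20 and 10.25 on the YAP mutant vector arrays, 10.47, 10.60 and 10.47 on the control vector arrays and 10.56, 10.83 and 10.68 on the untreated arrays. A probe filed under the shorter name COL28 lies outside the rule and was above background on 0 arrays.

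The other 14 of 16 tested collagen genes did not pass, and the median of the 16 was -0.04. COL14A1, a fibril-associated collagen, had 12.92, 12.82 and 13.06 on the untreated arrays, 12.74, 12.81 and 12.76 on the control vector arrays and 13.01, 12.98 and 12.80 on the YAP mutant vector arrays. Its difference from untreated cells was -0.003. Of the fibrillar chains, COL3A1 differed by 0.15, COL5A2, which regulates fibril diameter, by -0.26 (adjusted p = 0.193) and COL24A1 by 0.02. COL7A1, the anchoring fibril collagen of skin, differed by -0.13, and COL8A2, a network collagen, by -0.08.

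ITGA1, the alpha 1 chain of a collagen receptor, had log2 signals of 9.01, 9.02 and 9.37 on the YAP mutant vector arrays, 8.81, 8.97 and 8.99 on the control vector arrays and 8.49, 8.62 and 8.76 on the untreated arrays. The 3 groups did not overlap, and the gene was 1.42-fold higher than in untreated cells (log2 0.51 ± 0.11; limma, adjusted p = 0.00858). The call of ITGA1 ended without untreated replicate 1 (log2 0.44, adjusted p = 0.0529) or YAP mutant vector replicate 3 (0.39, adjusted p = 0.0721), and after scaling to equal medians (0.38, adjusted p = 0.29). ITGA2, the other collagen receptor chain above background throughout, differed by 0.08 (adjusted p = 0.719), with 9.63, 9.53 and 9.64 on the untreated arrays and 9.67, 9.61 and 9.77 on the YAP mutant vector arrays.

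Of the 12 tested integrins ITGA1 was the 1 that passed, and their median was 0.065. ITGB1 differed by 0.18 (limma, adjusted p = 0.343) at its brightest probe. Its 3 other kept probes differed by 0.10, 0.10 and -0.07, the last above background on 3 arrays only. ITGA7, a laminin receptor chain of muscle, differed by 0.26 (adjusted p = 0.195), ITGAV by 0.02, ITGB5 by 0.05 and ITGAE, which binds E-cadherin, by 0.01. ITGB2, the leukocyte beta chain, differed by 0.18 (adjusted p = 0.342) at its brightest probe. A second ITGB2 probe, also above background on 9 arrays, differed by -0.08 (limma, adjusted p = 0.76 in a fit over every kept probe). ITGB6 differed by -0.32 (adjusted p = 0.114) and passed as lower without untreated replicate 3 (log2 -0.44, adjusted p = 0.0455), which brought the count of called genes to 8.

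**Figure D3:**
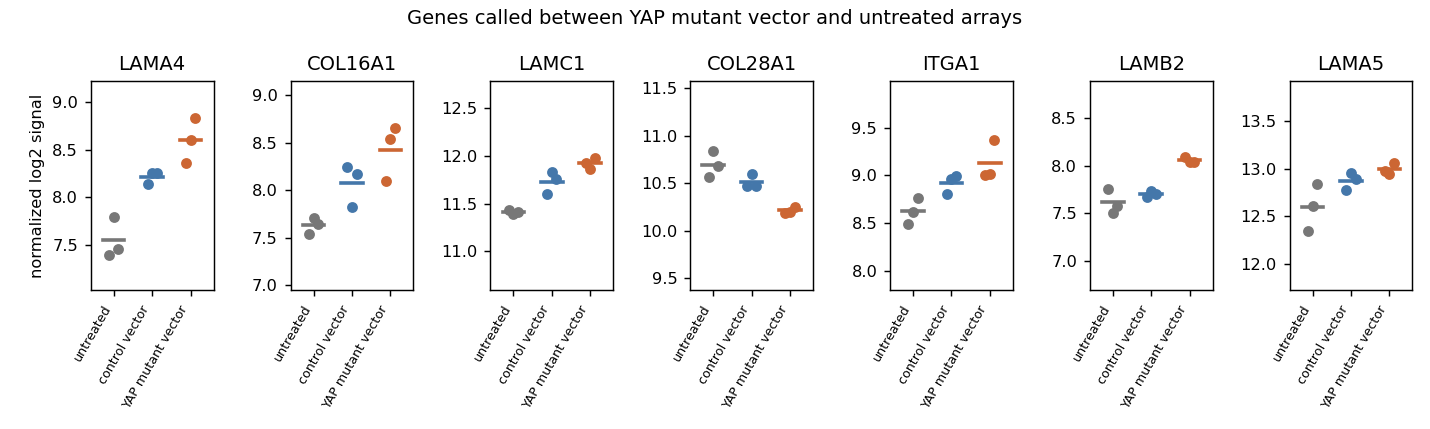
Normalized log2 signal (y axis) on every array of the 7 genes called between the YAP mutant vector and untreated cells, with each panel spanning the same height; points are arrays and bars are means of 3 arrays. The control vector mean lies between the other 2 means in all 7 panels, an order favoured by choosing genes on the difference between those 2 groups.

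Each of the 7 genes had the same sign in both steps. The steps ran from untreated cells to the control vector and from there to the YAP mutant vector, and they share the control vector arrays. The 7 were chosen by the sum of both steps, which favours equal signs, so the equal signs add no further result. Of the 7, only LAMA4 passed in the first step, and 0 passed in the second, where adjusted p ran from 0.221 to 0.932. For LAMA4 the first step was 0.67 and the second 0.38. For COL16A1 they were 0.44 and 0.35, for LAMC1 0.32 and 0.19, for ITGA1 0.30 and 0.21, and for LAMA5 0.28 and 0.12. For LAMB2 and COL28A1 the second was the larger in size, at 0.36 after 0.09 and -0.30 after -0.18. Whether the steps of a gene differ was not tested.

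**Figure D4:**
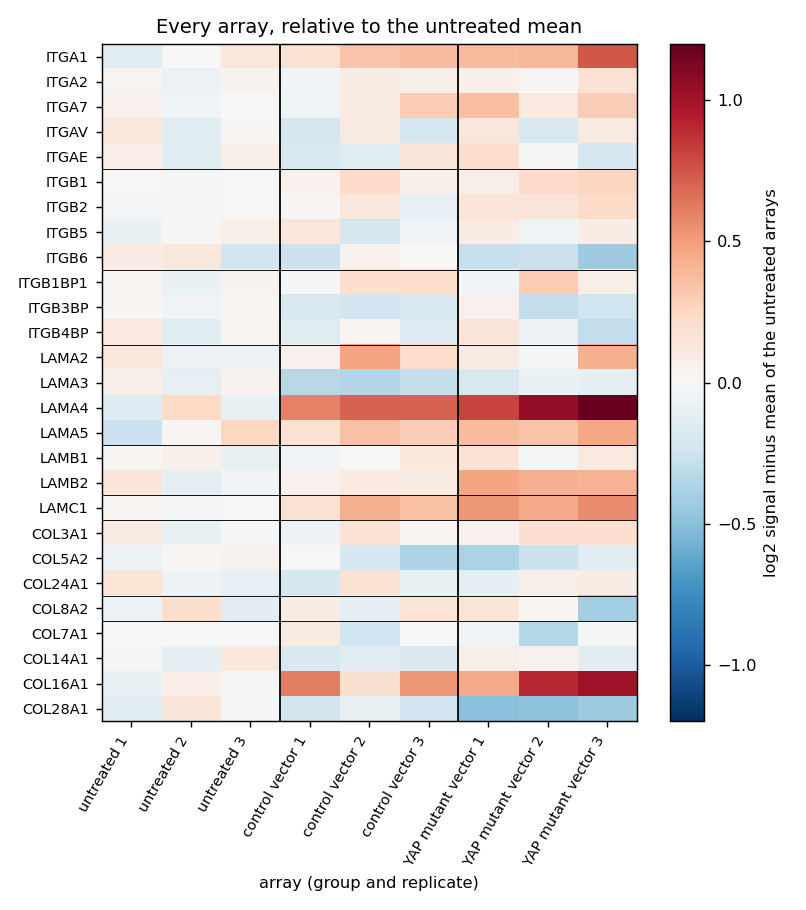
Log2 signal of the 27 genes above background on all 9 arrays (rows), each minus its mean over the untreated arrays, for every array (columns); red is higher and blue lower. LAMA4, LAMA5, LAMB2, LAMC1, COL16A1 and ITGA1 are higher than the untreated mean on all 6 vector arrays, and COL28A1 is lower on all 6. These are the genes called against untreated cells, a choice that favours this order. It is also seen in genes that were not called, ITGB1 among them.

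Other genes of matrix and adhesion came from lists chosen with earlier results of these data known. Their calls between the vectors, here and in the next paragraph, stand beside 0.321% of all features that rose and 0.0192% that fell. Of 30 tested integrin adaptors and focal adhesion genes 1 rose and 0 fell. FLNA (filamin A, which links actin to membrane receptors) differed by 0.60 (limma, adjusted p = 0.188) and passed without control vector replicate 1 (0.77, adjusted p = 0.0463). VCL (vinculin) differed by 0.34 (adjusted p = 0.407). The median of the 30 was 0.06.

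Of 17 other matrix proteins 1 rose between the vectors, the YAP target CCN2, at 2.12 (limma, adjusted p = 2.09e-09). Next by p were NTN4, a netrin that binds laminin, at 0.40 (adjusted p = 0.255) and the matricellular CCN1 at 0.38 (adjusted p = 0.274). Collagen synthesis genes gave 0 of 17 calls, with PPIB at 0.39, BMP1 at 0.30 and P3H1 at 0.16. Matrix proteases and their inhibitors gave 0 of 13, with SERPINE2 at -0.33, MMP11 at 0.41 and TIMP4 at 0.12. Hemidesmosome and tetraspanin partners gave 0 of 11, with CD82 at 0.26, PLEC at 0.19 and CD9 at 0.19. Other matrix receptors gave 0 of 10, with DDR1 at 0.26, SDC1 at 0.25 and CD44 at -0.25. Medians of these 5 lists ran from 0.03 to 0.07, beside -0.0006 over all features.

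Between the control vector and untreated cells, BGN (biglycan, a small proteoglycan) rose by 0.67 (limma, adjusted p = 0.00137) as 1 of 17 other matrix proteins. MMP11 (stromelysin 3) rose by 0.79 (adjusted p = 0.00235) as 1 of 13 proteases and inhibitors. The hyaluronan receptor CD44 rose by 0.66 (adjusted p = 0.00488) as 1 of 10 other receptors. The tetraspanin CD82 rose by 0.45 (adjusted p = 0.0482) as 1 of 11 hemidesmosome and tetraspanin partners. The counts of this paragraph stand beside 1.52% of all features that rose and 0.661% that fell. After scaling to equal medians the calls of BGN (adjusted p = 0.259) and CD44 (0.305) ended, and that of CD44 also with a normexp offset of 16 (0.0529). The call of CD82 ended under 16 of 24 alternatives, 6 of them the loss of 1 array, with 0.191 without untreated replicate 1, 0.121 without untreated replicate 3, 0.0855 without control vector replicate 1, 0.283 without control vector replicate 3, 0.0541 without YAP mutant vector replicate 1 and 0.0527 without YAP mutant vector replicate 2. The adaptors gave 0 of 30 calls and collagen synthesis genes 0 of 17.

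Against untreated cells, 5 of 17 other matrix proteins rose with the YAP mutant vector and 1 fell. The counts of this and the next lists stand beside 3.36% of all features that rose and 1.81% that fell. CCN2 was higher by 2.05, BGN by 0.81, LUM (lumican) by 0.51, FBLN1 (fibulin 1, above background on 1 of 3 untreated arrays) by 0.49 and NTN4 by 0.44, and TGFBI, which binds collagen and integrins, fell by 0.37 (limma, adjusted p = 0.0232 for TGFBI). Of 30 adaptors 2 rose, among them TNS3 (tensin 3) by 0.57. CD82 (0.71) and BSG (basigin, 0.35) rose as 2 of 11 tetraspanin and hemidesmosome partners, and PPIB, which isomerises prolines in procollagen, rose by 0.62 as 1 of 17 collagen synthesis genes. Of 13 proteases and inhibitors MMP11 (1.19), BSG, which this list shares, and CTSL (0.36) rose and SERPINE2 fell by 0.58. SDC1 (syndecan 1, a matrix-binding proteoglycan) rose by 0.53 as 1 of 10 other receptors. The calls of BSG, CTSL, NTN4, LUM, TGFBI and FBLN1 ended under 15, 10, 8, 6, 5 and 4 of 24 alternatives. Those of BGN (adjusted p = 0.0581), PPIB (0.181), SDC1 (0.261) and TNS3 (0.202) ended under 1, scaling to equal medians. Those that left out 1 array ended BSG without any untreated replicate, control vector replicate 1 or 2, or YAP mutant vector replicate 1 or 2 (limma, adjusted p from 0.0503 to 0.164). CTSL lost its call without any untreated replicate or YAP mutant vector replicate 2 or 3 (0.0557 to 0.167), and NTN4 without untreated replicate 2 or 3 or YAP mutant vector replicate 1 or 3 (0.064 to 0.166). TGFBI lost its call without any untreated replicate or YAP mutant vector replicate 3 (0.0515 to 0.1), FBLN1 without untreated replicate 2 or 3 or YAP mutant vector replicate 2 (0.0557 to 0.0976), and LUM without untreated replicate 2 or 3 or YAP mutant vector replicate 1 (0.0556 to 0.123).

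Markers of other cell types moved in part with these genes. Of 9 fibroblast markers 5 were tested, and LUM (0.51) and S100A4 (0.92) rose against untreated cells, S100A4 also between the vectors (0.63; limma, adjusted p = 0.00748). These calls stand beside 3.36% of all features that rose against untreated cells and 0.321% that rose between the vectors. Between the vectors 2 of the 5 had differences above 0, LUM at 0.10 being the other, and the median was -0.09, with POSTN at -0.33, PDGFRA at -0.15 and FAP at -0.09. The summed signal of all 9 was 7048 to 7903 on the untreated arrays, 8737 to 10310 on the control vector arrays and 10180 to 12720 on the YAP mutant vector arrays. DCN, PDGFRB, THY1 and ACTA2 among them were above background on 0 arrays. PDGFRA exceeded the floor on 0 of 3 untreated arrays and on all 6 vector arrays, and differed by 0.43 between the control vector and untreated cells (limma, adjusted p = 0.0551). Leukocyte markers, 4 of 8 tested with PTPRC and CD3E among those above background on 0 arrays, summed to 5096 to 6134, 5945 to 6842 and 5446 to 6323 in the same order. Of the leukocyte markers CD14 rose with the control vector by 0.43 (limma, adjusted p = 0.0381), as 1 of 4 tested. In that comparison 1.52% of all features rose. Endothelial markers, 1 of 7 tested, summed to 487.4 to 527.7, 508.9 to 544.3 and 522.0 to 562.4. The part of the fibroblast markers in the rises of the laminin genes was not tested.

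Enteroendocrine markers moved as well. SCG2 fell by 0.87 and PCSK1 by 0.57 against untreated cells while SCG3 rose by 0.43, as 3 of 9 (limma, adjusted p = 5.95e-06 for SCG2). Of all features 3.36% rose and 1.81% fell in this comparison. SCG2 was also lower with the control vector than in untreated cells (-0.43, adjusted p = 0.0249), as 1 of 9, beside 0.661% of all features that fell. The keratin KRT8 rose by 0.50 against untreated cells as 1 of 4 tested intestinal markers (limma, adjusted p = 0.046). Here too 3.36% of all features rose. Whether the marker calls, other than that of LUM, hold under other processing or without single arrays was not tested. Without the 2 dim arrays, control vector replicate 3 and YAP mutant vector replicate 1, 6 of the 7 integrin, laminin and collagen genes kept their calls against untreated cells. LAMA5 was the exception (log2 0.40, adjusted p = 0.097), and the counts of 0 between the vectors and 1 between control vector and untreated cells were the same.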

How the data were processed

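Expression was measured in 9 RNA samples of NCI-H716 on an Illumina bead array. One deposited table holds probe intensity per array, not normalized by the authors (medians differ between arrays) and given with no detection p-value. In the other the authors give log2 values with the same quartiles on every array, within 0.005 of the log2 of those intensities after quantile normalization. BeadStudio is named in the submitters' processing notes; its version is not given in the sources used here. Every one of the 9 columns entered (0 left out), and 0 pairs of arrays were identical.

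Intensities were background corrected with normexp (offset 50), put on the log2 scale and quantile normalized with limma 3.58.1 in R 4.3.3. The background floor of an array was the mode of its log2 intensities raised by 1.645 SD, taken from values under the mode. A probe was kept when above it on at least 3 arrays (20218 probes). Genes were represented by their brightest kept probe and unnamed probes stood alone, giving 15590 features. Names were brought up to date with RefSeq tables of GRCh38.p14: 27036 probes already had the present symbol, 4626 changed, 12244 kept theirs unmatched, 3270 were unnamed and 54 held a date. Integrin, laminin and collagen probes kept the name of the file. A single limma fit with group means was used (6 residual and 16.2 prior degrees of freedom), tests were 2-sided, and the call was an adjusted p (Benjamini-Hochberg, all features) below 0.05. The steps were tested on simulated data. The number of arrays limits the precision.

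The genes and lists were chosen with earlier results of these data known. Named genes were those called in any comparison, the 3 brightest of each class and the 2 with the smallest p between the vectors, and in each list those called and the 3 with the smallest p. Others are named by whether they exceeded background or, as part of a family or marker list, after their values were seen. Alternatives covered background, normalization, filter, probe choice, variance model, array weights, replicate block and each array left out. Leaving out both dim arrays and testing every probe were chosen after seeing the data. Some genes covered by these rules are not reported here.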

Additional observations from a re-analysis of the deposited data

How the results depend on the processing

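Between the vectors, 0 integrin, laminin and collagen genes were called under all 24 alternatives, while the count over all features, 53, ran from 10 to 65. Between the control vector and untreated cells the count of 1 became 2 with no background correction or with the authors' normalized table (LAMA4 and LAMC1) and 2 with a fit of the 6 arrays compared (LAMA4 and COL16A1). It became 0 after scaling arrays to equal medians, and leaving out 1 array gave 1 to 2; over all features the count of 340 ran from 47 to 422. Against untreated cells the YAP mutant vector gave 7, which became 3 after scaling arrays to equal medians (LAMA4, COL16A1 and COL28A1) and 5 to 8 with 1 array left out; the other alternatives gave 6 or 7. Over all features the count of 806 ran from 182 to 985. LAMA4, COL16A1 and COL28A1 were called against untreated cells under all 24 alternatives, with adjusted p of at most 0.00179, 0.0424 and 0.0458. LAMC1 lost its call under 1 alternative, LAMB2 under 2 and ITGA1 under 3. No called difference of these genes or of the matrix and adhesion lists changed sign. Cell type markers other than LUM were not followed under the alternatives. A floor set at the 95th percentile of olfactory receptor probes, and floors taken from uncorrected values or the authors' table, each left 38 genes above background in place of 39. The cause of these changes was not tested.

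Replicate numbers are shared between the groups, but deviations of equal numbers correlated at -0.198 to 0.164, so they were not taken as pairs. With the replicate block the counts were 0, 1 and 7, the same genes as without it. Several probes were kept for 8 of the 39 tested genes, and their signs were opposed for 4 between the vectors and for 4 against untreated cells. With 3 arrays a group, signals close to the floor limit what can be said of the 12 genes that exceeded it on 3 to 8 arrays.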
